A study of Homo sapiens with 12 samples.

Results

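The RNAs described here are 8 long noncoding RNAs, chosen by name out of 23228 genes counted in each library. MALAT1 and NEAT1 act in the nucleus, and GAS5, SNHG1, SNHG5, SNHG6, SNHG8 and ZFAS1 are host genes of small nucleolar RNAs (snoRNAs). The members were listed with values of these same libraries in view, so their levels and changes are a description and carry no test. All 8 passed the filter on low counts, as did 14874 genes in all. ZFAS1 stands in the files under its older symbol ZNFX1-AS1.

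The cells were SUM149PT, an established human line from an inflammatory, triple-negative breast cancer, and their polyadenylated RNA was sequenced. There were 4 groups of 3 libraries with the letters A, B and C. The DMSO group received solvent, the ipatasertib group 5 µM of this AKT kinase inhibitor, the tazemetostat group 5 µM of this inhibitor of the histone methyltransferase EZH2, and the combination group both at these doses. Tazemetostat or DMSO was given from 5 days before the last change of medium, whereas ipatasertib was given at that change, and RNA was taken 24 h later from cells in medium with 2% serum in every group. Exposure to tazemetostat was therefore longer than exposure to ipatasertib. All groups are the same cell line without genetic change, and the labels do not say that the letters are separate cultures, so the errors below measure the spread between these libraries, which may be technical.

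A snoRNA host gene is transcribed into a long RNA whose introns are cut into snoRNAs, which guide the chemical modification of ribosomal RNA in the nucleolus. The spliced remainder, the host RNA counted here, is exported and translated little, and several hosts are known substrates of nonsense-mediated decay. MALAT1 gathers in nuclear speckles with splicing factors, and NEAT1 is the scaffold of paraspeckles, nuclear bodies built with RNA-binding proteins such as SFPQ and NONO. Mature snoRNAs, mature MALAT1 and the long NEAT1 isoform have no poly(A) tail, so the counts measure what a polyadenylated library captured of them, and gene counts do not separate the NEAT1 isoforms.

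Host genes of this kind are known for starts in a run of pyrimidines, the mark of RNAs whose translation follows growth signals, and the stretch around the annotated start is shown to let the hosts be set beside MALAT1. Each is 50 bases before and 50 bases from the start, 5′ to 3′ on the gene's strand, from RefSeq on GRCh38.p14, and the capitals mark the longest run of C and T from 10 bases before the start to the end of the stretch. RefSeq's table held 6 of the 8 members, with both annotated starts of MALAT1.
GAS5: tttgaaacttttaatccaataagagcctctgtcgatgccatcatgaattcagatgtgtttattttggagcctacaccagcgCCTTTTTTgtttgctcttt
SNHG1: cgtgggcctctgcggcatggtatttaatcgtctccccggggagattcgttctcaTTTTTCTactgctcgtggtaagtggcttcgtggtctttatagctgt
SNHG5: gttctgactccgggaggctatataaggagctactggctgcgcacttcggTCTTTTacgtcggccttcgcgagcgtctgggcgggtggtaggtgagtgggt
SNHG8: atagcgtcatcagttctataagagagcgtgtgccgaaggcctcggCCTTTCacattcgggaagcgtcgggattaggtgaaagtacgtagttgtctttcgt
ZFAS1: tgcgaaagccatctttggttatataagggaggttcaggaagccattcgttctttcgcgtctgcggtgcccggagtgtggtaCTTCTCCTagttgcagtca
MALAT1 first start: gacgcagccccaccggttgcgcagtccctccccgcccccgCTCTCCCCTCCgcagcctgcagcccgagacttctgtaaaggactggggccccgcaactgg
MALAT1 other start: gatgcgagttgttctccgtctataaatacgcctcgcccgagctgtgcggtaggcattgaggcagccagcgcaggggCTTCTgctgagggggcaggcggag

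The stretches lie at chr1:173868996-173869095 on the minus strand for GAS5, chr11:62855836-62855935 on the minus strand for SNHG1, chr6:85678684-85678783 on the minus strand for SNHG5, chr4:118278712-118278811 on the plus strand for SNHG8 and chr20:49278592-49278691 on the plus strand for ZFAS1. The MALAT1 stretches lie at chr11:65497688-65497787 and chr11:65498995-65499094, both on the plus strand. The longest run had 8 bases in GAS5 and ZFAS1, a length that 21.8% of 35116 promoters in the table reached, and 7 bases in SNHG1, which 32.6% reached. In SNHG5 and SNHG8 it had 6 bases, which 48.1% reached, and in both of these genes, as at the first MALAT1 start, it touched the start itself. The first MALAT1 start had a run of 11 bases, reached by 6.19% of promoters, and the other start had 5, which is the median of all promoters. Counting only the run that holds the start base itself, a measure added after the sequences were seen like the one above, ZFAS1 had 7 bases (5.9% of promoters had as many), SNHG5 and SNHG8 had 6 (7.41%), SNHG1 had 5 (9.6%) and the first MALAT1 start had 11 (2.29%), while GAS5 and the other MALAT1 start had A or G there. The starts are RefSeq's and were not measured here. Searched on both strands of the table's longer window, 250 bases before to 50 after the start, CACGTG, the E-box that MYC binds, was in no member shown and in 7.26% of promoters, and GTAAACA, a FOXO motif, was in no member shown and in 3.42%. TATAAA, the letters at the core of the TATA box, was found in SNHG1 and at the other MALAT1 start, and in 11.5% of promoters. In the stretches shown, the SNHG1 match lies after the start on the opposite strand. The MALAT1 match lies before the start on the gene's strand. SNHG5, SNHG8 and ZFAS1 hold TATAAG before the start, which the exact search does not count, so no TATA box is assigned or denied here. None of the searched motifs overlaps another, and a match is letters only.

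The libraries held 22355242 to 49970540 gene counts, and levels are given as CPM, the counts scaled to libraries of equal size by TMM (trimmed mean of M-values). A library with 0 counts allows up to 3, which is 0.0600 to 0.134 CPM, for counting error only. This range, PGR and the summed markers of other cell types below were scaled by total gene counts alone, without TMM. The epithelial genes EPCAM and EGFR held 288 to 401 and 171 to 297 CPM in every library, the basal keratin KRT5 held 50.3 to 646, and of the receptor genes that define the triple-negative class PGR stayed at or under 0.141, ESR1 held 3.27 to 5.86 and ERBB2 held 64.9 to 101 CPM. The summed level of 10 markers of other cell types was 1.65 to 2.49 CPM under DMSO and 1.61 to 2.50 with tazemetostat, but 4.12 to 5.10 with ipatasertib and 6.07 to 8.27 with the combination, led by PECAM1 and PTPRC, with CD3E, HBB and ALB at or near 0, and its part in the results was not tested. Tazemetostat A and combination B differed most from the libraries they are grouped with, at a chi-square per degree of freedom of 14.4 to 24.9 in the pairs that hold them against 2.64 to 6.68 in the other pairs, so values without both are given where they differ.

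MALAT1 had the most counts of the 8 and was highest with the combination. Libraries A, B and C held 1474, 1241 and 1470 CPM under DMSO, 2131, 2001 and 2206 with ipatasertib, 1056, 1504 and 1822 with tazemetostat, and 2415, 2564 and 2877 with the combination. Every ipatasertib library lay above every DMSO and tazemetostat library, and every combination library above all of these, while DMSO and tazemetostat overlapped. On the log2 scale of the fit, MALAT1 was higher than under DMSO by 0.60 (SE 0.12, n = 3 per group, 1.51-fold) with ipatasertib and by 0.91 (SE 0.13, 1.88-fold) with the combination. With tazemetostat alone the difference was 0.07 (SE 0.12), with library A the lowest of the 12 and library C the highest of the 6 without ipatasertib. In bulk RNA a change in the make-up of the cells and a change in RNA per cell cannot be told apart.

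NEAT1 followed the same order at a lower count. Its CPM were 105, 101 and 92.9 under DMSO, 144, 141 and 174 with ipatasertib, 91.5, 116 and 141 with tazemetostat, and 204, 215 and 235 with the combination. The combination libraries lay above all others, the ipatasertib libraries lay above DMSO, and the highest tazemetostat library just overlapped ipatasertib. NEAT1 was 1.53-fold the DMSO level with ipatasertib (log2 change 0.62, SE 0.11) and 2.19-fold with the combination (1.13, SE 0.11), the largest change of any member. The combination also exceeded ipatasertib by 0.51 (SE 0.11) for NEAT1 and by 0.31 (SE 0.12) for MALAT1.

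Tazemetostat A and C weighed on both nuclear RNAs, in opposite directions. Without tazemetostat A and combination B, a fit chosen after the data were seen, tazemetostat against DMSO gave 0.23 for MALAT1 and 0.35 for NEAT1. Without tazemetostat C it gave -0.15 for MALAT1 and 0.03 for NEAT1. Both genes passed an adjusted p of 0.05 in the first of these fits and neither did with all libraries. Nothing is read from these calls, since the members were chosen with these values known. Both genes lie on chromosome 11, with 3 RefSeq genes between them, none of them protein-coding. MALAT1 held 11.5 to 15.8 times the NEAT1 counts in every library, with means of 14.1 ± 1.77 under DMSO, 13.9 ± 1.11 when ipatasertib was given and 12.5 ± 0.794 with tazemetostat (SD, n = 3) and 11.8, 11.9 and 12.2 in the combination libraries. Ipatasertib and tazemetostat overlapped DMSO in this ratio, and the combination libraries lay just below DMSO. Counts are not per length, so the ratio is no ratio of molecules.

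**Figure D1:**
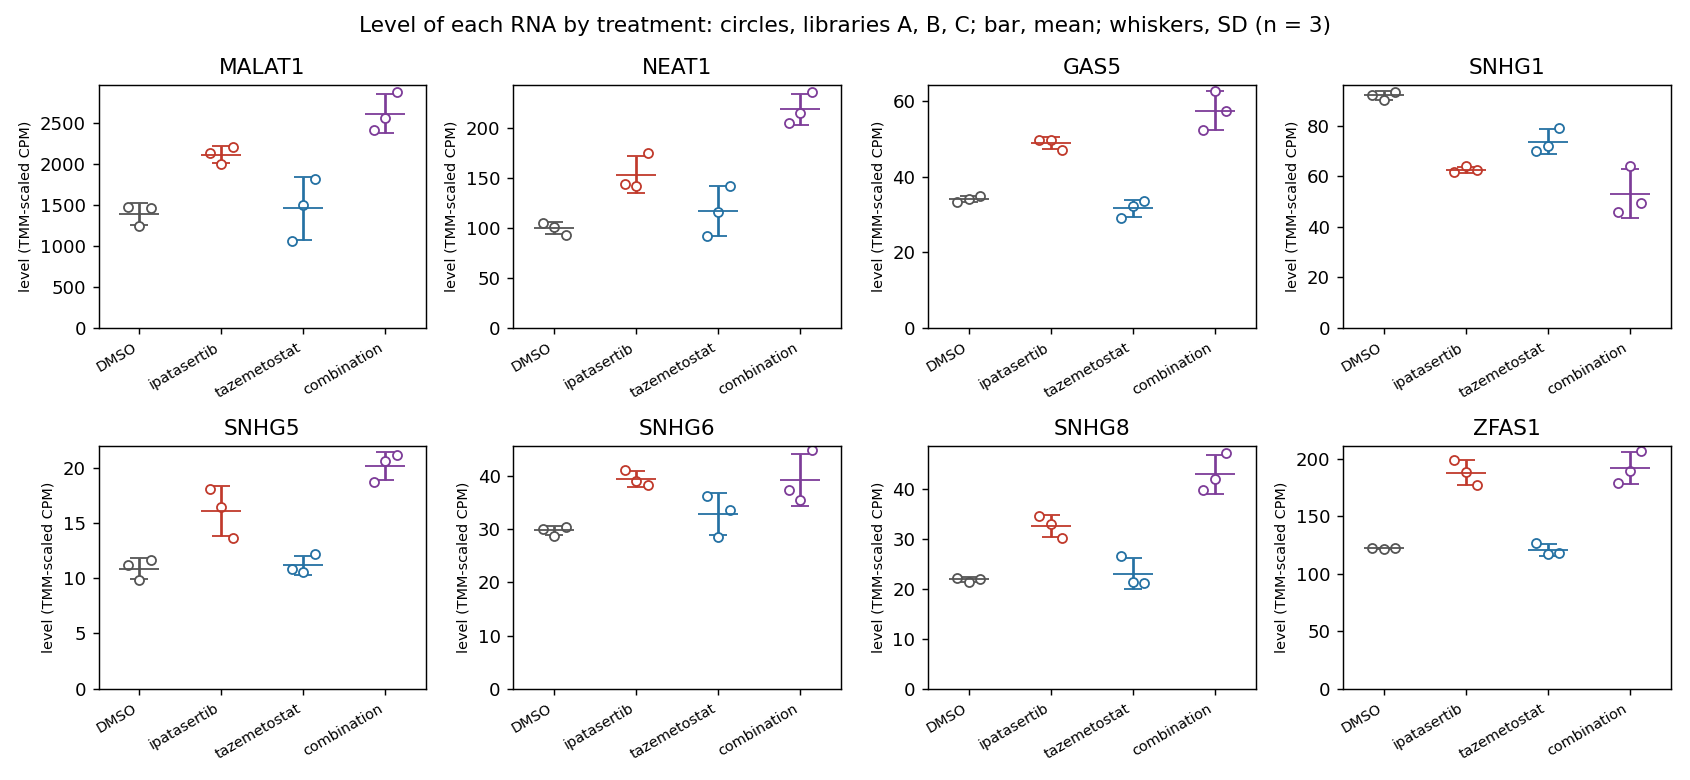
Level of each of the 8 RNAs in TMM-scaled CPM (vertical axes from 0) by treatment group. Circles are the libraries A, B and C from left to right, bars are means and whiskers the SD (n = 3). In 7 panels the ipatasertib and combination libraries lie above DMSO, and in the SNHG1 panel, with DMSO at 90.2 to 93.5, they lie below it.

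GAS5, found as a gene whose RNA builds up in growth-arrested cells and known to carry 10 snoRNAs in its introns, was higher wherever ipatasertib was present. It held 33.3, 34.2 and 34.9 CPM under DMSO, 49.7, 49.8 and 47.0 with ipatasertib, 29.2, 32.2 and 33.5 with tazemetostat, and 52.3, 62.6 and 57.5 with the combination. The ipatasertib and combination libraries did not overlap DMSO or each other, and tazemetostat overlapped DMSO. The log2 changes against DMSO were 0.52 (SE 0.07) with ipatasertib, -0.11 (SE 0.07) with tazemetostat and 0.75 (SE 0.07) with the combination.

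ZFAS1, which lies head to head with and antisense to ZNFX1, showed the tightest DMSO values, at 123, 122 and 122 CPM. It held 199, 189 and 177 CPM with ipatasertib, 127, 117 and 118 with tazemetostat, and 180, 190 and 207 with the combination. Ipatasertib and the combination overlapped each other and lay above DMSO in every library, by 0.62 (SE 0.06) and 0.65 (SE 0.06), and adding tazemetostat to ipatasertib changed it by 0.03 (SE 0.06). ZNFX1, its antisense partner, fell by 0.45 (SE 0.06) with ipatasertib, fell by 0.36 (SE 0.06) with tazemetostat, where ZFAS1 stood at -0.02 (SE 0.06), and fell by 0.58 (SE 0.06) with the combination (adjusted p = 1.59e-06, 3.2e-05 and 2.12e-08, edgeR's quasi-likelihood test with Benjamini-Hochberg adjustment). The strand setting of the counting is not given in the sources used here, so reads from their shared stretch cannot be told apart.

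SNHG8, host of SNORA24, held 22.2, 21.4 and 22.1 CPM under DMSO, 34.6, 33.1 and 30.3 with ipatasertib, 26.6, 21.3 and 21.2 with tazemetostat, and 39.8, 42.0 and 47.4 with the combination. Only tazemetostat overlapped DMSO, and the combination libraries were the highest of all. Its changes against DMSO were 0.58 (SE 0.09) with ipatasertib and 0.98 (SE 0.09) with the combination, the largest among the hosts. SNHG5, host of SNORD50A and SNORD50B, held 11.2, 9.83 and 11.6 CPM under DMSO, 18.1, 16.5 and 13.6 with ipatasertib, 10.8, 10.6 and 12.2 with tazemetostat and 18.8, 20.6 and 21.2 with the combination. It had the fewest counts of the members, 314 to 778 per library, and followed the order of SNHG8, with changes of 0.57 (SE 0.10) and 0.89 (SE 0.10).

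SNHG6, host of SNORD87, had the smallest change with ipatasertib and with the combination. Its CPM were 30.1, 28.8 and 30.4 under DMSO, 41.3, 39.1 and 38.4 with ipatasertib, 36.4, 28.5 and 33.7 with tazemetostat, and 37.5, 35.5 and 45.0 with the combination. Ipatasertib and the combination lay above DMSO in every library, yet tazemetostat overlapped both DMSO and the combination. The combination differed from ipatasertib by -0.01 (SE 0.09), and its change against DMSO, 0.40 (SE 0.09), was the smallest among the 7 members above DMSO.

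SNHG1, host of 8 snoRNAs and a classic example of a host whose spliced RNA has no long reading frame, was the exception. It held 92.2, 90.2 and 93.5 CPM under DMSO, 61.6, 63.8 and 62.3 with ipatasertib, 70.0, 71.8 and 79.2 with tazemetostat, and 45.8, 64.1 and 49.3 with the combination. All 9 treated libraries lay below DMSO, tazemetostat lay above ipatasertib, and combination B lay just above all ipatasertib libraries while combination A and C lay below them. The log2 changes against DMSO were -0.56 (SE 0.09) with ipatasertib, -0.32 (SE 0.09) with tazemetostat and -0.80 (SE 0.09) with the combination. Combination against ipatasertib gave -0.24 (SE 0.09) for SNHG1, and -0.40 without tazemetostat A and combination B.

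**Figure D2:**
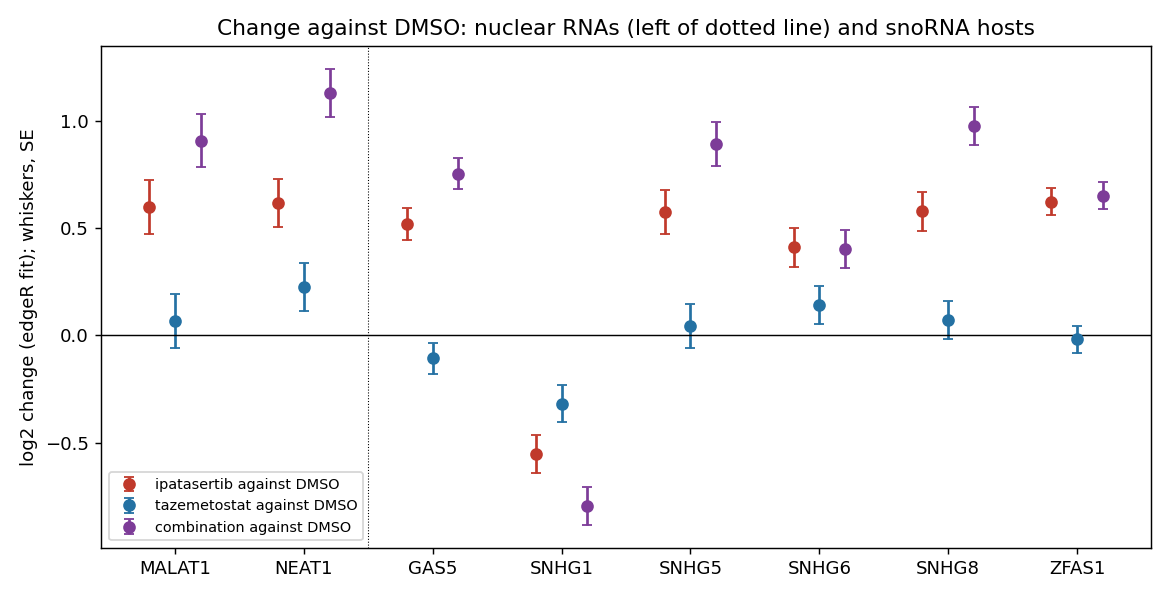
Log2 change against DMSO from the edgeR fit (vertical axis) for each RNA, with whiskers of 1 SE, for ipatasertib, tazemetostat and the combination. MALAT1 and NEAT1 stand left of the dotted line. SNHG1 alone lies below 0 with all 3 treatments, and tazemetostat alone lies within 0.33 of 0 for every member.

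A gene was called when its adjusted p in edgeR's quasi-likelihood test, with Benjamini-Hochberg adjustment over 14874 genes, was under 0.05. With ipatasertib against DMSO, 7 members were called higher and SNHG1 lower, where 25.4% of all genes tested were called higher and 28.7% lower, 54.1% in all, and the same 7 and 1 lay wholly above or below DMSO, against 31.4% and 34.7% of all genes. With tazemetostat, 0 were called higher and SNHG1 lower, where the shares were 25.1% and 20.9%, 46% in all, and for libraries wholly above or below they were 30.2% and 25.5%. That 0 was also 0 at an unadjusted p under 0.05 and with DESeq2, but 1 under scaling by total counts and with no filter, and 2 without tazemetostat A. With the combination, 7 were called higher and SNHG1 lower, where the shares were 36.5% and 34.5%, 71% in all, and the same 7 and 1 did not overlap DMSO, as 36.9% and 35% of genes did not. Since the members were chosen with these values known, nothing is read from their counts.

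Combination against ipatasertib called NEAT1, GAS5, SNHG5 and SNHG8 higher and SNHG1 lower, against 21.8% and 17.3% of all genes, 39.1% in all. MALAT1 and the 4 called higher lay wholly above ipatasertib, as 24.9% of genes did, and 0 members lay wholly below, as 22% did. The SNHG1 call was lost in 5 of the 12 fits that left out a library, and without ipatasertib C only 2 members were called higher. Combination against tazemetostat called 7 higher and SNHG1 lower, against 29.8% and 30.8%, 60.6% in all, with 6 and 1 members free of overlap, against 29.4% and 29.8%. These comparisons share the DMSO or combination libraries, so each member's values are given side by side and no overlap between comparisons is counted.

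The interaction asks whether the combined log2 change exceeds the changes with each inhibitor added up. It was called for 0 of the 8 members, against 3.62% of all genes, 1.87% above and 1.75% below 0. The value was 0.34 (SE 0.10) for GAS5, 0.32 (SE 0.13) for SNHG8, 0.29 (SE 0.16) for NEAT1, 0.28 (SE 0.14) for SNHG5 and 0.24 (SE 0.18) for MALAT1. Without tazemetostat A and combination B it was 0.09 for MALAT1, 0.17 for NEAT1 and 0.24 for GAS5, and without tazemetostat C it was 0.45 for MALAT1 and 0.47 for NEAT1. For SNHG1, ZFAS1 and SNHG6 it was 0.08 (SE 0.13), 0.05 (SE 0.09) and -0.15 (SE 0.13). An unadjusted p under 0.05 was reached by 2 hosts and by neither nuclear RNA, DESeq2 called 1 member, and the fit without tazemetostat A and combination B called 2. Scaling by total counts alone in place of TMM moved the median of all genes from -0.01 to 0.10 with ipatasertib, from 0.02 to 0.09 with tazemetostat and from 0.02 to 0.16 with the combination. It turned 3771 higher and 4269 lower calls into 5113 and 2987 with ipatasertib, 3737 and 3112 into 4828 and 2110 with tazemetostat, 5435 and 5130 into 6604 and 3947 with the combination, and 278 and 261 into 216 and 561 for the interaction. Under that scaling SNHG1 was still lower in every treatment, at -0.44, -0.25 and -0.66, and the other members still higher with ipatasertib and the combination.

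Set beside each other, the mean of MALAT1 and NEAT1 exceeded the mean of the hosts most with the combination, though SNHG8, at 0.98, then lay above MALAT1, and ZFAS1 lay level with both with ipatasertib. Over ipatasertib, tazemetostat and the combination in turn, their mean log2 change was 0.61, 0.15 and 1.02, against 0.36, -0.03 and 0.48 for the 6 hosts. Part of that gap was SNHG1: without it the hosts averaged 0.54, 0.03 and 0.74. The nuclear mean minus the mean of the 6 hosts was 0.25, 0.18 and 0.54 in the same order, and these differences carry no test. Leaving out single libraries moved the ipatasertib value between 0.14 (without ipatasertib C) and 0.31, the tazemetostat value between 0.02 (without tazemetostat C) and 0.36 (without tazemetostat A), and the combination value between 0.51 and 0.58.

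Within each library, where scaling cancels, MALAT1 and NEAT1 held 5.07, 4.38 and 4.96 counts per count of the 6 hosts under DMSO, 5.62, 5.48 and 6.45 with ipatasertib, 3.82, 5.75 and 6.60 with tazemetostat, and 7.01, 6.71 and 7.28 with the combination. In these sums, most of which is MALAT1, the combination was above all other libraries and ipatasertib was above DMSO. Tazemetostat spanned the range from below DMSO to above ipatasertib. Both separations were lost when medians of log2 levels took the place of sums. By that difference combination B, at 3.85, lay below tazemetostat C at 3.92 and ipatasertib C at 3.86. Ipatasertib A and B, at 3.61 and 3.59, then lay below DMSO A at 3.63. SNHG1 per count of GAS5, a comparison of hosts that went opposite ways, was 2.70 ± 0.0674 under DMSO and 2.33 ± 0.0908 with tazemetostat. It was 1.28 ± 0.0423 with ipatasertib and 0.919 ± 0.0913 with both inhibitors, and no group overlapped another. Because these hosts went opposite ways with ipatasertib and with the combination, their ratio was bound to move there. Nothing is read from its separation. The share of reads that fell in no gene was 19.7% ± 0.764 under DMSO and 18.4% ± 0.501 with tazemetostat, then 24.6% ± 0.961 with ipatasertib and 23.8% ± 0.923 with both inhibitors. It was higher in the groups where MALAT1 and NEAT1 were higher, and its part in their values was not tested.

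**Figure D3:**
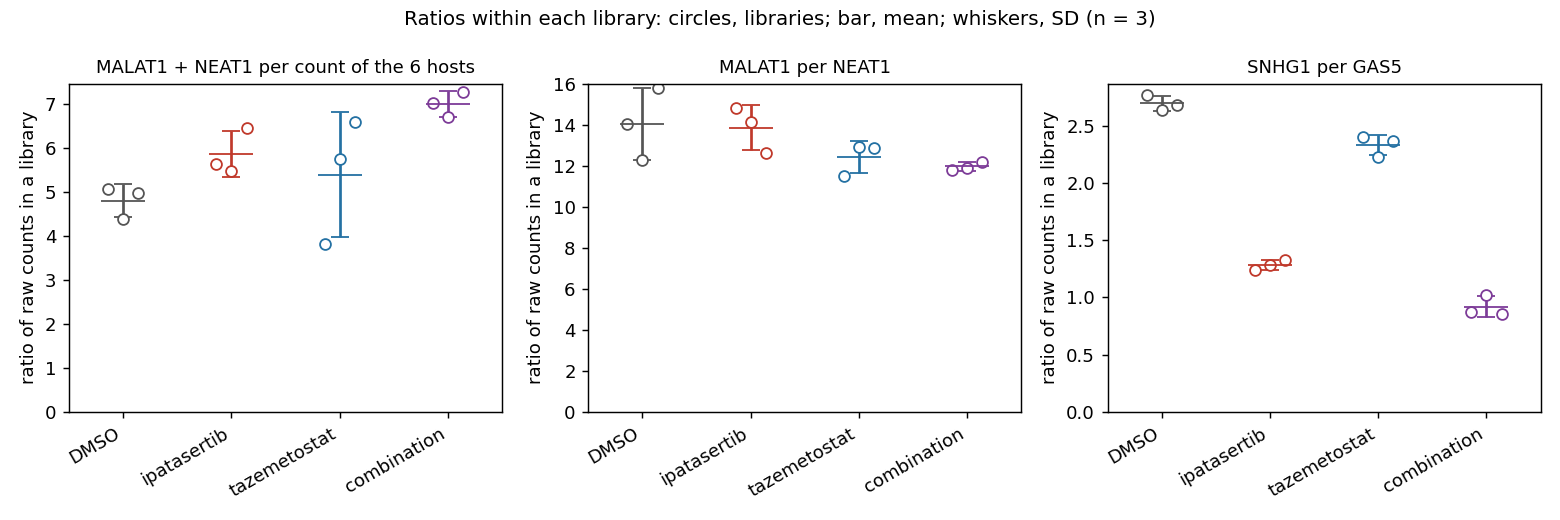
Ratios of raw counts within each library (vertical axes from 0): MALAT1 plus NEAT1 per count of the 6 hosts, MALAT1 per NEAT1, and SNHG1 per GAS5. Circles are libraries, bars means and whiskers SD (n = 3). The first ratio is highest with the combination, at 6.71 to 7.28. SNHG1 per GAS5, a ratio of hosts that went opposite ways with ipatasertib, falls into 4 separate groups, which is a description only.

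Other noncoding host genes, from a list of 19 of which 13 were analysed here, went in both directions. With ipatasertib and with the combination, 5 of the 6 hosts above were higher than under DMSO. Of all genes tested 25.4% were called higher and 28.7% lower with ipatasertib, and 36.5% and 34.5% with the combination. With ipatasertib 3 rose, 5 fell and 5 did not pass (median log2 change -0.14, against -0.01 over all genes tested), and with the combination 5 rose and 6 fell (median -0.22 against 0.02). EPB41L4A-AS1 rose by 1.14 (SE 0.12) and 1.60 (SE 0.12), from 5.12 ± 0.872 CPM under DMSO to 11.4 ± 0.941 and 15.7 ± 0.688. SNHG29 rose by 0.71 (SE 0.05) and 0.89 (SE 0.05), and SNHG32 rose by 0.53 (SE 0.06) and 0.65 (SE 0.06). SNHG12 fell by 0.80 (SE 0.11) and fell by 1.47 (SE 0.11), and SNHG4 fell by 0.70 (SE 0.14) and fell by 1.57 (SE 0.15), from 7.01 ± 1.09 to 2.39 ± 0.417 CPM with the combination. Adjusted p for these 5 genes lay between 1.66e-11 and 0.000353 in edgeR's quasi-likelihood test with Benjamini-Hochberg adjustment.

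With tazemetostat alone SNHG29 rose, by 0.15 (SE 0.05), but stood at 0.07 without tazemetostat A and lost its call in 11 of the 12 fits that left out a library. Of the 13 genes 6 fell (median -0.23, against 0.02), where 20.9% of all genes tested were called lower and 25.1% higher. SNHG4 fell by 0.87 (SE 0.14), SNHG12 fell by 0.74 (SE 0.10) and SNHG7 fell by 0.34 (SE 0.09), at adjusted p = 3.86e-05, 8.05e-06 and 0.00665 in the same edgeR quasi-likelihood test. SNHG12 and SNHG4 had their lowest means with both inhibitors, as SNHG1 did. SNHG3 and SNHG4 lie over or beside protein-coding genes, so their counts are uncertain without a strand setting.

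**Figure D4:**
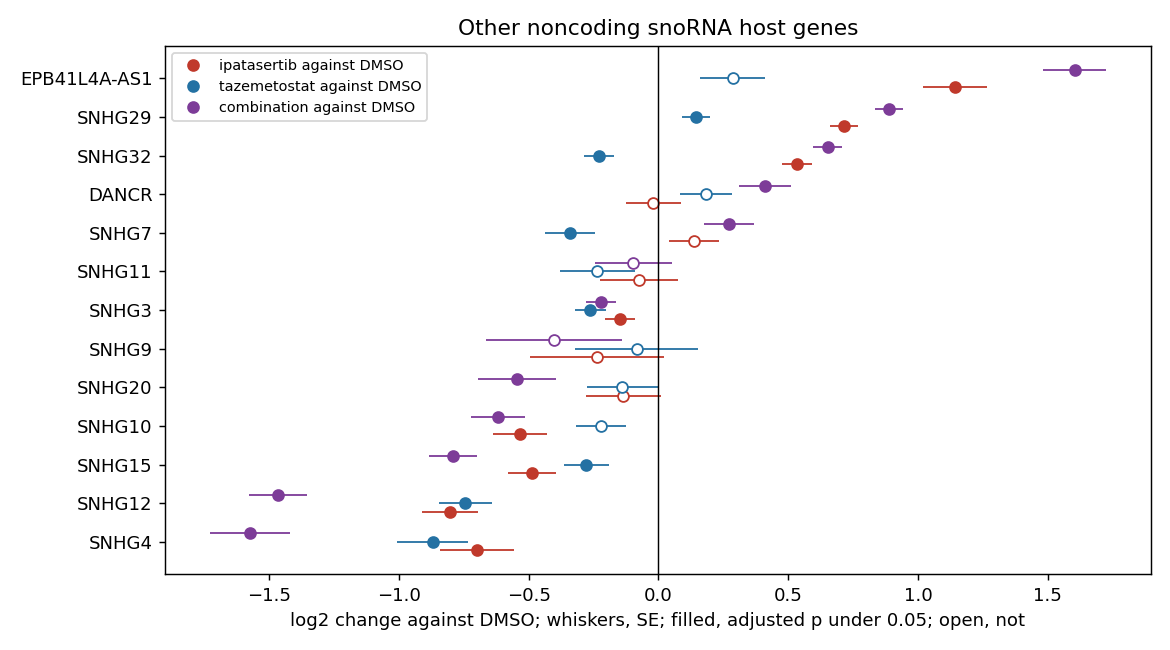
Log2 change against DMSO (horizontal axis, whiskers 1 SE) of 13 further noncoding snoRNA host genes with ipatasertib, tazemetostat and the combination. Filled circles have an adjusted p under 0.05. EPB41L4A-AS1, at 1.60, and SNHG4, at -1.57, mark the ends of the combination values.

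Protein-coding snoRNA hosts went in both directions. Of all genes tested 25.4% were called higher and 28.7% lower with ipatasertib, 25.1% and 20.9% with tazemetostat, and 36.5% and 34.5% with the combination. Of 33 tested out of 35, 20 rose and 10 fell with ipatasertib (median 0.31, against -0.01), and 21 rose and 10 fell with the combination (median 0.37). Among the 18 that encode ribosomal proteins 16 rose and 1 fell with ipatasertib, and among the other 15 there were 4 that rose and 9 that fell, a split that was made after the values were seen. RPL13A rose by 1.28 (SE 0.07), TPT1, a growth-related protein with a pyrimidine start, by 0.96 (SE 0.08) and the translation initiation factor EIF4A2 by 0.62 (SE 0.08). NOP56, a core protein of box C/D snoRNPs, fell by 0.79 (SE 0.05), the chaperone HSPA8 fell by 0.73 (SE 0.07) and WDR43, a ribosome assembly factor, fell by 0.67 (SE 0.06). Adjusted p for these 6 lay between 5.11e-11 and 2.72e-06 in edgeR's quasi-likelihood test with Benjamini-Hochberg adjustment. With tazemetostat 5 rose and 3 fell, against 5 and 9 without tazemetostat A and combination B and 11 and 2 under scaling by total counts.

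The 84 cytosolic ribosomal protein genes were picked by symbol from the count files themselves, with relatives such as RPL3L and RPL39L among them. Over all genes tested, 25.4%, 25.1% and 36.5% were called higher with ipatasertib, tazemetostat and the combination, and 28.7%, 20.9% and 34.5% lower. Of the 84 genes 79 were tested, and 59 rose and 5 fell with ipatasertib (median 0.30, against -0.01 over all genes). With the combination 60 rose and 8 fell (median 0.37, against 0.02). Many have processed copies elsewhere in the genome, so single values are uncertain. With tazemetostat alone 10 rose and 4 fell, and this direction did not hold, with 29 and 1 under scaling by total counts and 10 and 17 without tazemetostat A and combination B.

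With ipatasertib and with the combination, the snoRNAs inside the 6 hosts went the other way from most of their hosts. The shares of all genes tested called lower with ipatasertib, tazemetostat and the combination were 28.7%, 20.9% and 34.5%. Those called higher were 25.4%, 25.1% and 36.5%. Of 25 snoRNAs analysed, 20 passed the filter, and 11 fell with ipatasertib, 6 fell with tazemetostat and 18 with both. In any of the 3, 0 rose, by DESeq2 and at an unadjusted p under 0.05 as well. Their counts are low, with at most 148 for any of them in a library, so the sum over all 25, which no filter touches, is the firmer value. That sum was 24.5, 23.7 and 22.3 CPM under DMSO, 14.4, 14.6 and 13.2 with ipatasertib, 16.3 ± 2.13 (SD, n = 3, library A lowest) with tazemetostat, and 9.24, 9.45 and 8.50 with the combination. All treated libraries lay below DMSO, and all combination libraries below every other.

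For GAS5 the host was higher with ipatasertib while its snoRNAs were lower. The 10 snoRNAs summed to 9.99, 9.80 and 9.84 CPM under DMSO, 5.69, 5.70 and 5.61 with ipatasertib, 5.10, 7.05 and 7.67 with tazemetostat, and 4.19, 3.98 and 3.30 with the combination. Per 100 counts of GAS5 this was at least 28.2 under DMSO, 17.5 to 22.9 with tazemetostat, 11.5 to 11.9 with ipatasertib and 5.73 to 8.01 with both inhibitors, and no group overlapped another. SNORD80 fell by 0.85 (SE 0.18) and SNORD74 fell by 1.11 (SE 0.25) with ipatasertib (edgeR's quasi-likelihood test, Benjamini-Hochberg adjusted p = 0.000445 and 0.00101).

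For SNHG1, the host and its snoRNAs were both lower. The 8 snoRNAs summed to 12.2, 11.8 and 10.5 CPM under DMSO, 7.70, 7.49 and 6.30 with ipatasertib, 7.41, 8.28 and 8.89 with tazemetostat, and 4.01, 4.46 and 4.33 with the combination. Per 100 counts of SNHG1 they were 11.3 to 13.3, 10.1 to 12.5 and 10.6 to 11.5 in the first 3 groups, which overlapped, and 6.97 to 8.78 with the combination, below them all. SNORD22 fell by 0.84 (SE 0.19) and SNORD29 fell by 0.85 (SE 0.25) with ipatasertib (adjusted p = 0.000754 and 0.00684, edgeR's quasi-likelihood test with Benjamini-Hochberg adjustment).

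Other snoRNAs were lower too, where 28.7%, 20.9% and 34.5% of all genes tested were called lower with ipatasertib, tazemetostat and the combination. Of 339 other snoRNA genes, a set added after the hosts' snoRNAs were seen, 84 were tested, and 32 fell with ipatasertib, 28 fell with tazemetostat and 63 with both, while 0 rose, also 0 at an unadjusted p under 0.05 and with DESeq2. Their summed level went from 95.3 ± 3.48 CPM under DMSO to 63.2 ± 2.72, 68.6 ± 5.02 and 47.1 ± 2.23 (SD, n = 3). Reads counted as ambiguous, which overlap more than 1 gene, were 1.57% to 1.83% of all reads in each library, and their part in these values was not tested.

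**Figure D5:**
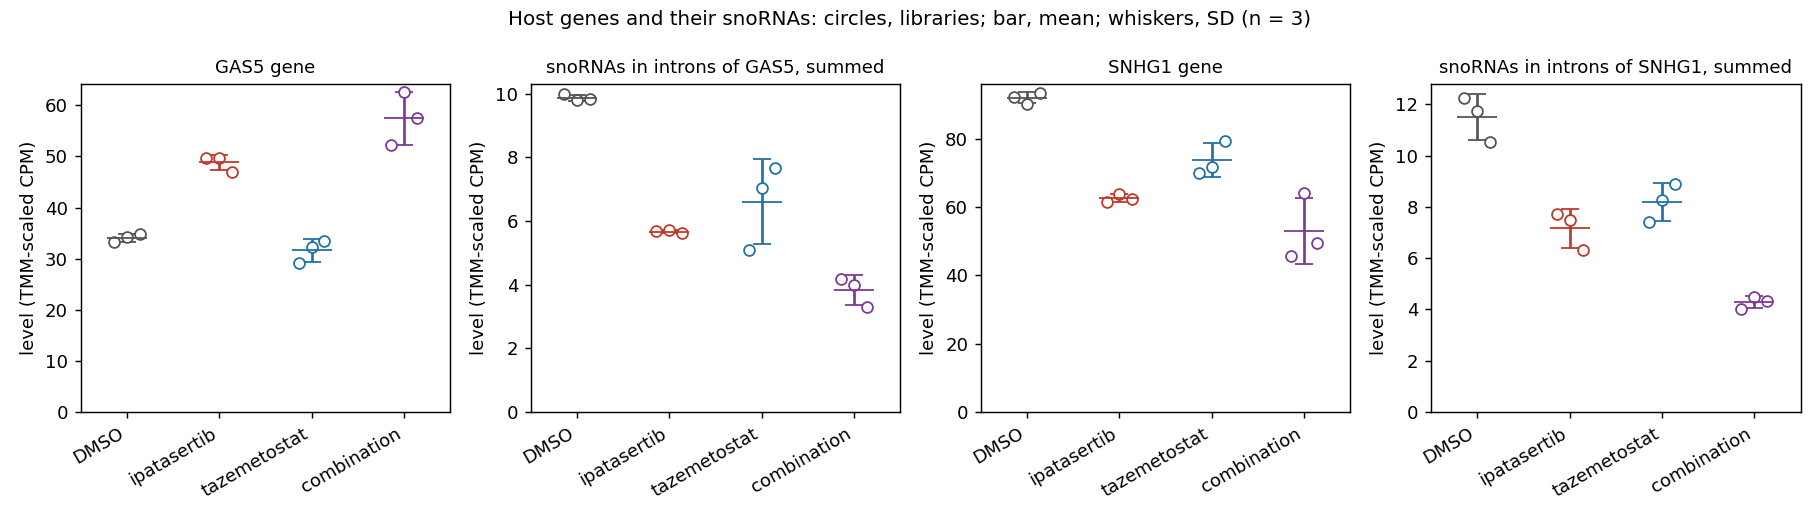
Level in TMM-scaled CPM (vertical axes from 0) of GAS5, of the 10 snoRNAs in its introns summed, of SNHG1 and of the 8 snoRNAs in its introns summed, by treatment. Circles are libraries, bars means and whiskers SD (n = 3). With ipatasertib GAS5 lies above DMSO and its snoRNAs below, whereas SNHG1 and its snoRNAs both lie below.

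Genes for the proteins these RNAs work with were mostly lower with ipatasertib and with the combination, and fewer were lower with tazemetostat alone. Of all genes tested 28.7%, 20.9% and 34.5% were called lower with ipatasertib, tazemetostat and the combination. The shares called higher were 25.4%, 25.1% and 36.5%, and all these shares apply to the next lists too. Of 15 paraspeckle proteins, 11 fell with ipatasertib, 4 fell with tazemetostat and 13 with both, and none rose in edgeR (medians -0.28, -0.02 and -0.44, against -0.01, 0.02 and 0.02 over all genes tested). At an unadjusted p under 0.05 the number higher was 0, 0 and 1, and with DESeq2 it was 0 in each. RBM14, a protein needed for paraspeckles to form, fell by 0.70 (SE 0.08), fell by 0.42 (SE 0.08) and fell by 1.04 (SE 0.08) in these comparisons, and the RNA-binding protein DAZAP1 fell by 0.56 (SE 0.05) with ipatasertib and fell by 0.75 (SE 0.05) with the combination.

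Of 16 nuclear speckle proteins, 13 fell with ipatasertib and 13 with the combination, while the same 2, the splicing kinases CLK1 and CLK4, rose in both (medians -0.41 and -0.55). CLK1 rose by 0.40 (SE 0.12) and 0.49 (SE 0.12), and PNN and SRRM1, splicing cofactors, had log2 changes of -0.70 (SE 0.07) and -0.64 (SE 0.06) with ipatasertib and of -0.88 (SE 0.07) and -0.93 (SE 0.06) with the combination. Of 17 snoRNP proteins and assembly factors, 14 fell and 1 rose with ipatasertib and with the combination (medians -0.35 and -0.60). NOLC1, a nucleolar chaperone of snoRNPs, fell by 0.74 (SE 0.05) and fell by 1.07 (SE 0.05), and ZNHIT3, an assembly factor, rose by 0.33 (SE 0.08) and 0.39 (SE 0.08). With tazemetostat 6 of the 16 speckle proteins fell and 0 rose (median -0.07). Of the 17 snoRNP proteins and assembly factors 4 fell and 1 rose with tazemetostat (median -0.06).

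Of 15 nonsense-mediated decay factors, 9 fell with ipatasertib, 7 fell with tazemetostat and 12 with both, and 0 rose in any of the 3 with edgeR or DESeq2 (medians -0.25, -0.17 and -0.30). At an unadjusted p under 0.05 the number higher was 0, 1 and 0. SMG5 fell by 0.61 (SE 0.07) and the kinase SMG1 fell by 0.55 (SE 0.08) with ipatasertib, and UPF1, the central helicase, fell by 0.26 (SE 0.07) with tazemetostat. Under scaling by total counts the decay factors counted 2 higher and 7 lower with ipatasertib, 2 and 3 with tazemetostat and 1 and 8 with the combination, and the paraspeckle proteins 0 and 8, 1 and 3, and 1 and 8. Adjusted p for the genes named in these groups was at most 0.0122, for CLK4 with ipatasertib, in edgeR's quasi-likelihood test with Benjamini-Hochberg adjustment. The lists were made with results of these data known.

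Among 9 other long noncoding RNAs tested, 3 rose with ipatasertib and 0 fell, 2 rose with tazemetostat and 0 fell, and 3 rose and 1 fell with the combination (medians 0.13, -0.07 and 0.07). Of all genes tested 25.4%, 25.1% and 36.5% were called higher. HOTAIR, a HOX-cluster RNA known for binding the EZH2 complex, rose by 1.05 (SE 0.12) with ipatasertib and stood at 0.01 (SE 0.12) with tazemetostat. TINCR, an RNA of epidermal differentiation, rose by 3.61 (SE 0.32) with tazemetostat, from 0.186 ± 0.0724 to 2.23 ± 0.490 CPM, which no member did. TUG1, an abundant nuclear and cytoplasmic RNA, stood at 0.00 (SE 0.06), -0.07 (SE 0.06) and 0.07 (SE 0.06). Adjusted p was 3.45e-07 for HOTAIR and 2.83e-08 for TINCR in those comparisons (edgeR's quasi-likelihood test, Benjamini-Hochberg adjustment), and the count of 0 lower was 1 and 0 at an unadjusted p under 0.05 with ipatasertib and tazemetostat, and 0 in both with DESeq2.

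The genes whose log2 CPM followed each member most closely over the 12 libraries, among 9626 genes with a mean of at least 10 CPM, are given as a description. The points share their library, depth and treatment. For MALAT1 the nearest gene was NEAT1 (Pearson r = 0.955), and for NEAT1 the nearest were PHLDB2 (0.969) and LYST (0.968). ZFAS1 was nearest to RPL3 (0.993) and RPL7A (0.992), both protein-coding snoRNA hosts, SNHG6 to RPL37A (0.951) and C19orf79 (0.946), and SNHG8 to LARP6 (0.986). GAS5 was nearest to ACVR1 (0.991) and WDR48 (0.989), SNHG5 to POLR1D (0.985) and C4orf14 (0.977), and SNHG1 to TMEM69 (0.989) and RBM25 (0.974). The nearest gene was thus one for a ribosomal protein for SNHG6 and ZFAS1.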

How the data were processed

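The authors sequenced polyadenylated RNA from 12 libraries of SUM149PT and deposited raw read counts per gene. The submitters' processing notes name the build hg19 and the tools DESeq2, HTSeq, SAMtools and STAR. Tool versions, annotation and strand setting were not given in the sources used here. A deposited table of normalised signal for all libraries, in which 23202 of 23228 lines matched by symbol, equalled the counts divided by 1 size factor per library within a relative tolerance of 1e-06 and was not tested. The 5 lines that name no gene held 29.8% to 38.6% of reads and were left out.

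Libraries were grouped by their titles. Counts were analysed in R 4.3.3 with edgeR 4.0.16 (filterByExpr, TMM, 1 quasi-likelihood fit over all 12 libraries with 1 coefficient per group, F-test). P-values were adjusted by Benjamini-Hochberg over 14874 genes, with a common biological coefficient of variation of 0.0645. Each SE is the absolute log2 change over the root of its F. CPM are TMM-scaled, apart from PGR, the summed markers of other cell types and the range allowed for 0 counts. The depth of 22355242 to 49970540 gene counts limits the precision of CPM. The scripts were tested on simulated data. Members, gene lists and tests were chosen with earlier results of these data known. Genes were named by rule: all members, up to 3 called genes with the largest rise and fall per list and comparison, and the 2 nearest genes by correlation, of which some are not reported here. ZNFX1 was added after its values were seen. Alternatives were DESeq2 1.42.0, scaling by total counts, library sizes without the members, no filter, a replicate block, medians in place of sums in the ratios and leaving out each library. The fit without tazemetostat A and combination B was chosen after seeing the data, as were the counts of snoRNAs and of the other lists under each alternative. Symbols were matched through RefSeq synonyms.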

Additional observations from a re-analysis of the deposited data

Results flagged for a closer look

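Of the genes described above, 2 host genes were called for the interaction term of the edgeR quasi-likelihood fit. They were 1 of 13 other noncoding hosts and 1 of 33 protein-coding hosts, where 3.62% of all genes tested were called. Nothing about host genes as a class is read from this count. SNHG32, a noncoding host, had an interaction of 0.35 (SE 0.08, adjusted p = 0.0196 with Benjamini-Hochberg adjustment). Its change with ipatasertib was 0.53 over DMSO and 0.88 over tazemetostat alone, with a log2 change of -0.23 for tazemetostat against DMSO. EEF2, the translation elongation factor that moves the ribosome along the mRNA, had an interaction of 0.38 (SE 0.09, adjusted p = 0.0223 in the same edgeR fit), with 0.40 over DMSO and 0.78 over tazemetostat. Both were positive in every fit run, and the call was lost in 6 of the 12 fits that left out a library for SNHG32 (DMSO B or C, ipatasertib A or C, tazemetostat C, combination C). For EEF2 it was lost in 7 (DMSO A or B, ipatasertib A or C, tazemetostat B or C, combination C). Without tazemetostat A and combination B, which differed most from the other libraries, the values were 0.42 and 0.52 and both calls held.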

How the results depend on the processing

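The depth limits the snoRNAs most, since several had fewer than 20 counts in a library, and 3 libraries a group limit the rest. All members kept their direction with ipatasertib and the combination in every fit run. The interaction depended most on the choices: 539 genes were called, against 928 with DESeq2, 905 with no filter, 753 with the replicate block, 777 with scaling by total counts, 4766 without tazemetostat A and combination B, and 243 to 2443 when single libraries were left out, the highest without combination B. Other noncoding hosts with an interaction were 1, against 2 with DESeq2, 2 with no filter, 2 with the replicate block, 3 without both libraries and 0 to 2 leaving out 1. The nuclear minus host difference of the interaction, 0.11, turned to -0.072 without tazemetostat A and -0.035 without both libraries, with a range of -0.072 to 0.27 leaving out 1, and the cause was not tested. Combination against ipatasertib called 7 other noncoding hosts, and 4 to 7 leaving out 1, lowest without ipatasertib B. The snoRNAs of the 6 hosts called were 11 with ipatasertib (7 to 11 leaving out 1, lowest without DMSO A), 6 with tazemetostat (2 to 7, lowest without DMSO A, and 3 with scaling by total counts) and 6 for the combination against ipatasertib (1 to 7, lowest without ipatasertib A, and 3 with the replicate block). Other snoRNAs called were 32 with ipatasertib (21 to 32, lowest without DMSO A), 11 for the combination against ipatasertib (5 to 13, lowest without ipatasertib C, and 17 with no filter), 34 against tazemetostat (22 to 35, lowest without tazemetostat C), and for the interaction 0, against 3 without both libraries. Correlation of deviations was -0.07 to 0.30 over 18 pairs of libraries with the same letter, 2 above 0.1. Over 36 pairs with other letters it was -0.34 to 0.18, 3 above 0.1. The highest were tazemetostat A with combination A, at 0.30, and tazemetostat B with combination B, at 0.21. Whether the letters pair the libraries was left undecided. The replicate block called 8250, 7123 and 10698 genes for ipatasertib, tazemetostat and the combination against DMSO, where without it there were 8040, 6849 and 10565. Taking medians in place of sums, the mean log2 ratio of nuclear RNAs to hosts became 3.54, 3.69, 3.65 and 3.99 in the order of DMSO, ipatasertib, tazemetostat and combination. The combination mean was still the highest, but its libraries then overlapped ipatasertib and tazemetostat, and ipatasertib overlapped DMSO. Among the further single-gene results under an alternative, 177 lost their call, 3351 kept it and none reversed.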
